A study of Mus musculus with 18 samples.

Results

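Transcripts of 10 acute phase and complement genes were measured in the kidneys of 18 mice. The genes were chosen by name: the complement proteins C3 and Cfb, the fibrinogen chains Fga, Fgb, and Fgg, the plasma proteins Saa3 and Cp, the cytokine receptors Osmr and Il1r1, and the feedback inhibitor Socs3. They are 10 of 78239 genes listed in each file. All mice were outbred CD-1 offspring aged 6 wk and labelled WT. Dams of the LP groups ate a diet with 8% protein and dams of the NP groups a diet with 18% protein, from mating until the end of lactation, and all offspring ate the NP diet after weaning. Each mouse gave 1 library, and the groups held 5 mice each except the NP females, of which there were 3. The adult mice came from a few litters and the labels do not tie mice to litters, so that mice of a group may be littermates, which the tests do not take into account. By the methods, the adult mice had their filtration measured with FITC-sinistrin and all were injected with cationic ferritin, a charged iron-storage protein that labels glomeruli. Kidneys of males were taken 90 min and those of females 24 h after the last ferritin injection, so that sex and this interval cannot be told apart in any comparison of females with males. RNA came from whole pieces of kidney, and in such bulk samples fewer cells of a type and less RNA per cell cannot be told apart.

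The acute phase response is the change in plasma proteins that follows injury or infection. It is best known in the liver, where interleukin 6 and related cytokines signal through the shared receptor gp130 and the transcription factor STAT3, and interleukin 1 signals through NF-kB. Members of the C/EBP family, whose transcripts are induced by both, act on many of the same genes. The kidney epithelium also makes part of this set, including C3 and fibrinogen, and such transcripts are known to rise in injured tubules.

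Sequence upstream of the genes is shown because the members take different inputs in textbook accounts. In the 250 bases before the start of the canonical transcript (GRCm39, GENCODE vM39), 3 motifs were searched on both strands: TTCNNNGAA for STAT, TTGCNNAA for C/EBP, and the NF-kB consensus. Of 21770 such windows of protein-coding genes, 7.7% held the STAT letters, 9.34% the C/EBP letters, and 4.23% the NF-kB letters. Among the 10 members these counts were 2, 3, and 2. No match was found in the windows of Fgg, Saa3, Osmr, and Cp, which says only that these letters are not in these windows. The windows of C3, which differed between the sexes, and Fgb, which was nearly silent, are given in full, with matches in capitals.
C3, chr17:57535156-57535405, minus strand: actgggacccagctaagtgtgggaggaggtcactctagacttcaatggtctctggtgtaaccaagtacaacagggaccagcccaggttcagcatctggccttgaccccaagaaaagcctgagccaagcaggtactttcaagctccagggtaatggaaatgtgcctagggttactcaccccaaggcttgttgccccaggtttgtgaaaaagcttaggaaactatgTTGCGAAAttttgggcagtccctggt
Fgb, chr3:82957171-82957420, minus strand: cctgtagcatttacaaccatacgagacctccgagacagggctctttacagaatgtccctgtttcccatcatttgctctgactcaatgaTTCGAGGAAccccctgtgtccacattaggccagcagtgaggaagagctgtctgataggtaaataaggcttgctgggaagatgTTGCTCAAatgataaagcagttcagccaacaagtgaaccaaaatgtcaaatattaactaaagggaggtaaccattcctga
The window of Fgb held both the STAT letters and, nearer the start, the C/EBP letters. The window of C3 held the C/EBP letters from 26 to 19 bases before its start. Matches in the other members are given with their flanks, again with the matching letters in capitals. The canonical transcripts of Socs3, Fga, and Il1r1 start inside the span of their genes, and 173, 139, and 48 bases of their windows lie in exons of the same gene.
Cfb, NF-kB letters, chr17:35081699-35081728, minus strand: gcaaaagctaGGGAATCCCCaggattgtgc
Cfb, NF-kB letters, chr17:35081606-35081635, minus strand: gctttcacacGGAATTTCCCagttatgtaa
Fga, C/EBP letters, chr3:82933315-82933342, plus strand: ctacagagaaTTGAGCAAgagtttctgg
Socs3, STAT letters, chr11:117860328-117860356, minus strand: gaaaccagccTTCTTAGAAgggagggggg
Il1r1, NF-kB letters, chr1:40305504-40305533, plus strand: cagggattttGGAATGCCCCcaaggagatg
Cfb was the member with a pair of NF-kB matches, and its window lies inside exons of transcripts of the neighbouring gene C2 over 232 of its bases. A match is a description of letters and not a binding site.

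Each library had between 14050486 and 23562411 reads counted on genes, with a median of 16747971.5, and 28.6% to 36.1% of the reads were not counted on a single gene. Values below are normalized counts, that is, counts divided by the library's size factor, unless stated otherwise. In a clustering of all genes, LP female 1, LP female 2, and NP female 3 stood apart from the other 15 libraries. Their depths, from 14475623 to 19750111, were within the range of the rest. The share of reads not counted on a single gene was 36.1% in NP female 3 and 33.1% in LP female 2, the 2 highest of the 18, and 31.4% in LP female 1. The 14 interferon-stimulated genes listed summed to 247 to 344 CPM, which are counts scaled to a common library total, in these 3 females, 1494 to 4738 in the other 5 females, and 966 to 1899 in males. Of the 18 libraries, 6 held more than 1 CPM of Plin1, the lipid droplet protein of fat cells: LP male 4, NP males 2 and 3, LP female 5, and NP females 2 and 3. For the members, results that change without either set of libraries are given with and without them. The lists of related genes are given with and without the 3 females only. Without the 6 libraries a single NP female remains, and some calls of list genes between the sexes were lost, which are not detailed.

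C3 is the central complement component, on which all activation routes converge. Its gene lies on chr17:57510964-57535155 of GRCm39, on the minus strand. In LP males the values were 403, 392, 276, 586, and 299, and in NP males they were 180, 719, 717, 276, and 212. In LP females they were 944, 311, 1325, 1237, and 1965, and in NP females 780, 1333, and 675. Every female but LP female 2 was above 8 of the 10 males, and LP female 2 lay among the males. The mean was 406 ± 200 (SD, n = 10) in males and 1071 ± 506 (n = 8) in females. The 3 males with Plin1 above 1 CPM were the 3 highest for C3, at 586 to 719 against 180 to 403 in the other 7. The part of fat in these values was not tested.

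Cfb encodes factor B, the protease subunit of the alternative pathway convertase that cleaves C3. It lies on chr17:35074852-35081559, minus strand, and its exons overlap those of Nelfe on the other strand and of Gm20547 on the same strand. Reads in shared exons are not assigned to either gene by the counting, and Gm20547 had 0 counts in every library, so the Cfb values come from the unshared part of the gene. In LP males they were 164, 181, 169, 223, and 128, and in NP males 102, 224, 244, 200, and 96.7. In LP females they were 193, 87.8, 110, 123, and 151, and in NP females 42.0, 126, and 19.7. The lowest kidneys were thus NP females 1 and 3, and 7 of 8 females were below the male mean of 173 ± 51.5 (n = 10). The 3 males with Plin1 above 1 CPM were again the 3 highest, at 223 to 244 against 96.7 to 200 in the other males.

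**Figure D1:**
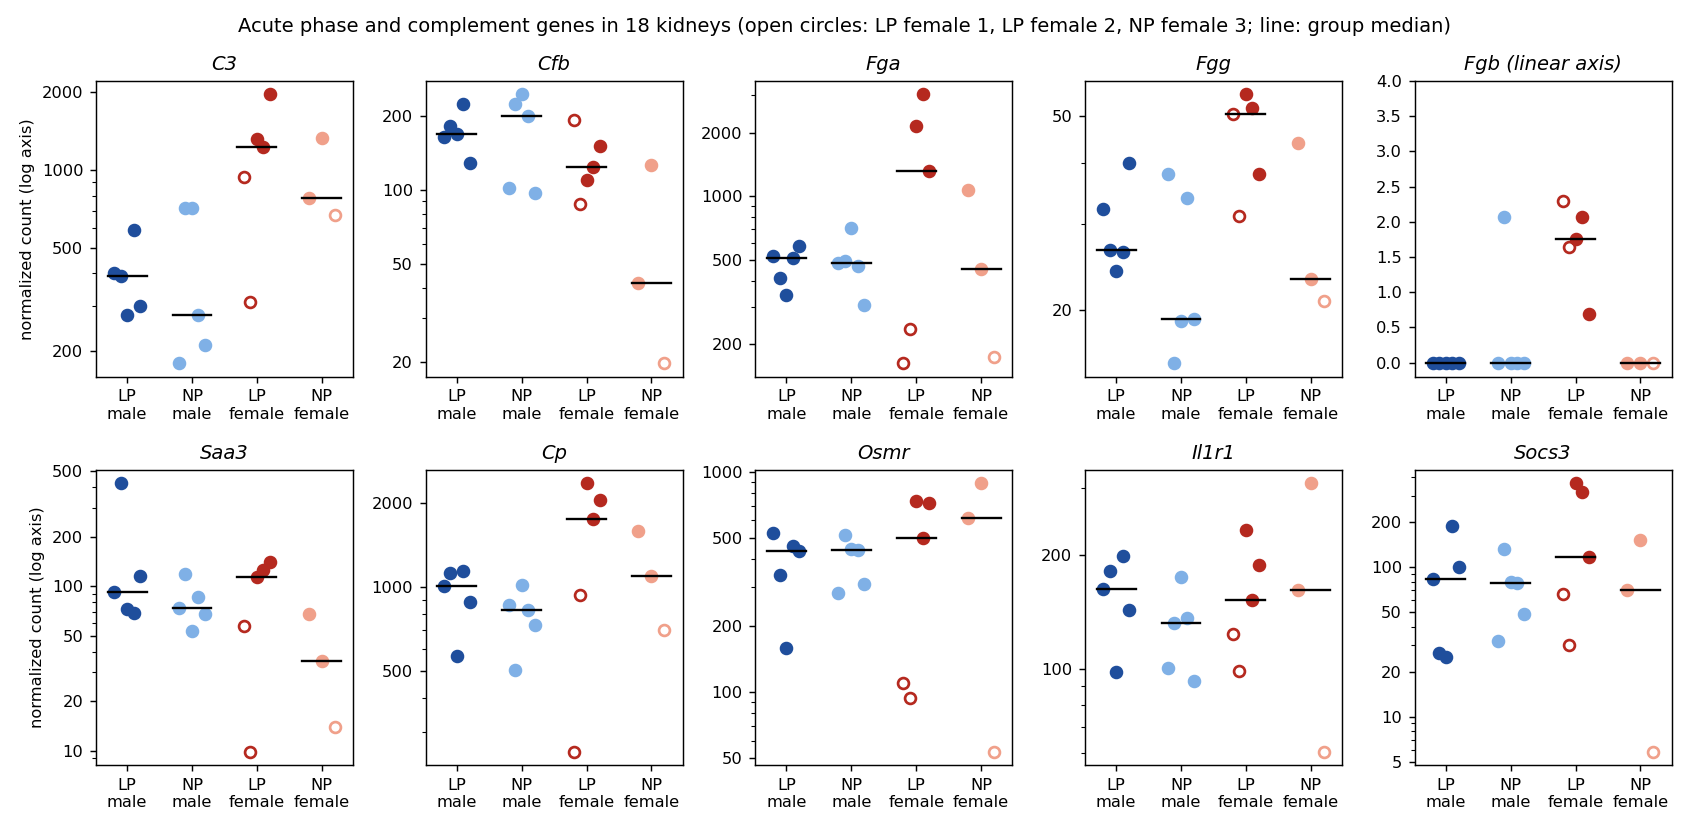
Normalized counts of the 10 genes in each kidney (log axis, linear for Fgb) by group, with 1 point per mouse and a line at the group median. C3 lies higher in most females than in males, Fgb is at or near 0 throughout, and the 3 females drawn as open circles are the lowest females for Osmr, Fga, Socs3, Cp, and Il1r1.

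The count of C3 over that of Cfb separated the sexes, a ratio that was chosen after the values were seen and is given without a test. It was 1.38 to 3.21 in males, with a median of 2.26, and 3.54 to 34.2 in females, with a median of 11.3. The highest male was NP male 2 and the lowest female was LP female 2. NP female 3 had the highest ratio, from a Cfb count of only 17.

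**Figure D2:**
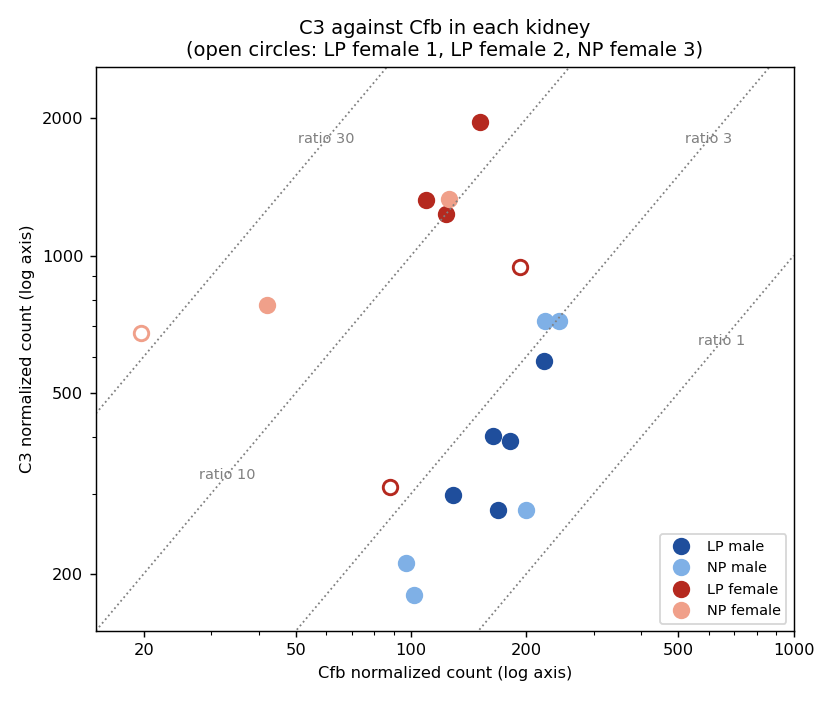
C3 against Cfb in each kidney, both as normalized counts on log axes, with dotted lines of equal ratio and open circles for the 3 females that stood apart. All 10 males lie close to or below the line of ratio 3 and all 8 females above it, with no diet group separated within a sex.

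Fga, Fgb, and Fgg encode the 3 chains of fibrinogen, which are secreted as 1 assembled protein. The genes are neighbours on chr3, Fgg at 82915030-82922363, Fga at 82933383-82940934, and Fgb at 82947448-82957170. Their transcripts were unequal in the kidney. Over the 18 libraries Fga had 14072 counts, Fgg 618, and Fgb 12. Fgb was detected in 6 libraries with at most 3 counts, which is the count that 0 in a library still allows. It had 3, 2, 2, 2, and 1 counts in LP females, 2 in NP male 2, and 0 in each of the other 12 libraries. An exact two-sided permutation test gave p = 0.0179 for LP against NP females, the smallest value that 5 against 3 mice allow, but both groups were at or under the limit of 3 counts and no fold is given.

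Fga was 523, 413, 340, 509, and 582 in LP males and 482, 494, 707, 468, and 307 in NP males. In LP females it was 163, 237, 2143, 3031, and 1318, and in NP females 1072, 455, and 174. The females held both the lowest and the highest kidneys, and all males lay between them. The mean was 483 ± 115 (n = 10) in males and 1074 ± 1053 (n = 8) in females. Per kilobase of exon, Fga exceeded Fgg in every library, by 9.61 to 28.1 times in males and by 2.44 to 44.2 times in females. Fgg itself was low, at 15.6 to 39.9 in males and 20.9 to 55.3 in females, and overlaps Gm30097 on the other strand. Of 10 hepatocyte markers, which summed to 51.5 to 208 CPM, 3 had a mean of at least 1 CPM: Apob at 30.2 to 172 CPM, Trf at 2.58 to 30.6, and Alb at 1.19 to 14.2. Ahsg and Serpina1c, which hepatocytes express strongly, had at most 1 count in any library. Their part in the fibrinogen values was not tested.

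Saa3, a serum amyloid A made outside the liver, lies on chr7:46361422-46365576. It was 92.9, 423, 73.1, 68.8, and 116 in LP males and 73.5, 118, 53.7, 86.6, and 67.5 in NP males. It was 57.3, 9.85, 114, 126, and 141 in LP females and 67.9, 35.2, and 13.9 in NP females. LP male 2 stood far above every other kidney. Cp encodes ceruloplasmin, the copper-carrying ferroxidase of plasma, on chr3:20011090-20063930, and shares exon sequence with Hps3 on the other strand. Cp was 1008, 1120, 563, 1136, and 881 in LP males and 861, 501, 1016, 824, and 729 in NP males. In females it was 255, 935, 2356, 1754, and 2043 with LP and 1590, 1091, and 700 with NP, so that 4 of 8 females were above the highest male.

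Osmr, on chr15:6843053-6904450, encodes the receptor subunit that pairs with gp130 to bind oncostatin M. It was 528, 341, 159, 458, and 436 in LP males and 280, 518, 446, 441, and 309 in NP males. In LP females it was 109, 93.6, 738, 497, and 718, and in NP females 618, 886, and 53.4. The 3 lowest of all 18 kidneys and the 4 highest were female. Il1r1, on chr1:40264174-40356417, encodes the signalling receptor for interleukin 1. It ranged from 92.7 to 199 in males, with a median of 139, and from 60.3 to 308 in females, with a median of 156. Socs3, on chr11:117856905-117860898, is induced by STAT3 and blocks gp130 signalling. It was 83.0, 26.6, 25.0, 190, and 101 in LP males and 31.8, 132, 79.4, 78.4, and 48.4 in NP males. It was 65.8, 30.4, 365, 319, and 117 in LP females and 70.9, 153, and 5.8 in NP females. Socs3 overlaps Gm73339 and Gm57366 on the other strand, and the library does not separate strands.

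Levels of different genes were compared as RPKM, the reads per kilobase of exon scaled to a common library size. C3, Cfb, Fgg, Socs3, and Cp share exon sequence with another gene, where reads are not assigned. Their counts were divided by the full exon length, so their RPKM may be too low by an amount that was not measured. In males Fga was the highest at 8.39 ± 2.07 (SD, n = 10), then C3 at 4.39 ± 2.23 and Cp at 4.30 ± 1.15, which did not differ beyond their spread. Cfb was at 2.83 ± 0.878, Saa3 at 2.09 ± 1.91, Osmr at 1.77 ± 0.569, Socs3 at 1.27 ± 0.877, and Il1r1 at 1.16 ± 0.331, and each of these overlapped its neighbours. Fgg followed at 0.630 ± 0.194, and Fgb was at 0.0031. In females the highest were Fga at 20.3 ± 19.1, C3 at 12.8 ± 5.92, and Cp at 7.41 ± 3.80 (n = 8), each within the spread of the next. They were followed by Socs3 at 2.42 ± 2.19, Osmr at 2.34 ± 1.69, Cfb at 1.97 ± 1.06, Il1r1 at 1.52 ± 0.733, Saa3 at 1.40 ± 0.973, and Fgg at 1.02 ± 0.332, again with overlapping spreads, and Fgb was last at 0.0174. The place of Socs3 rests on the females outside the first split, since it was at 0.631 ± 0.565 in the 3 that stood apart.

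The question of the study was whether the maternal diet left a mark on the kidney, and LP and NP offspring were compared separately in males and in females. All genes with at least 10 counts in each library compared entered edgeR's quasi-likelihood test. A gene was called where its Benjamini-Hochberg adjusted p was under 0.05 and its change at least 1.5-fold. In males 9 members were tested (Fgb was too low) and 0 were called, against 0.0379% of all 13181 genes tested. In females 8 were tested (Fgb and Socs3 were too low) and 0 were called, against 0% of 13510 genes. None of the members tested had an unadjusted p under 0.05 by edgeR in either sex. DESeq2 and limma-voom also called 0 members. Of all 13510 genes in females, 564 had an unadjusted p under 0.05 in edgeR, which is a share below 0.05. DESeq2 called 9 of these 13510 genes and limma-voom 0.

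In males Saa3 showed the largest log2 fold change, 0.95 (SE 0.48, edgeR adjusted p = 0.9996), and it was 0.14 without LP male 2. C3 was at -0.09 (SE 0.39), Cfb at 0.01 (SE 0.27), and Fga at -0.04 (SE 0.20). Without the 3 males with Plin1 above 1 CPM, C3 was at 0.64 (SE 0.21, unadjusted p = 0.0114, edgeR adjusted p = 0.983), Cfb at 0.29 (SE 0.28), and Fga at 0.17 (SE 0.22). The LP and NP males overlapped for all 9 members. In females the log2 fold change was 1.25 (SE 0.95) for Fga, 1.17 (SE 0.76) for Saa3, and 1.05 (SE 0.54) for Cfb, each with an edgeR adjusted p of 0.886. Both female diet groups held kidneys from either side of the first split. Without the 3 females that stood apart, Saa3 was at 1.28 (SE 0.34), Fga at 1.48 (SE 0.45), and Cp at 0.59 (SE 0.22), with unadjusted p of 0.00665, 0.0137, and 0.0298 and an edgeR adjusted p of 0.972 for each, from 3 LP and 2 NP females. With 1 female left out, Cfb spanned 0.66, without NP female 3, to 2.09 (SE 0.44, edgeR adjusted p = 0.118), without NP female 2. Without the females with Plin1 above 1 CPM a single NP female remained, assumed to vary like the LP females, and Cfb was at 1.604 (SE 0.55), Fga at 0.35 (SE 1.51), and Saa3 at 0.15 (SE 1.10). The diet effect was not shown to differ between the sexes: 0 of 8 members had an adjusted p under 0.05 for the interaction, against 0.0158% of 12665 genes, 0 had an unadjusted p under 0.05 by edgeR, and DESeq2 and limma-voom called 0. The largest interaction was 1.28 (SE 0.92) for Fga, and without the 3 females it was 1.51 (SE 0.47, unadjusted p = 0.00603, edgeR adjusted p = 0.999).

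**Figure D3:**
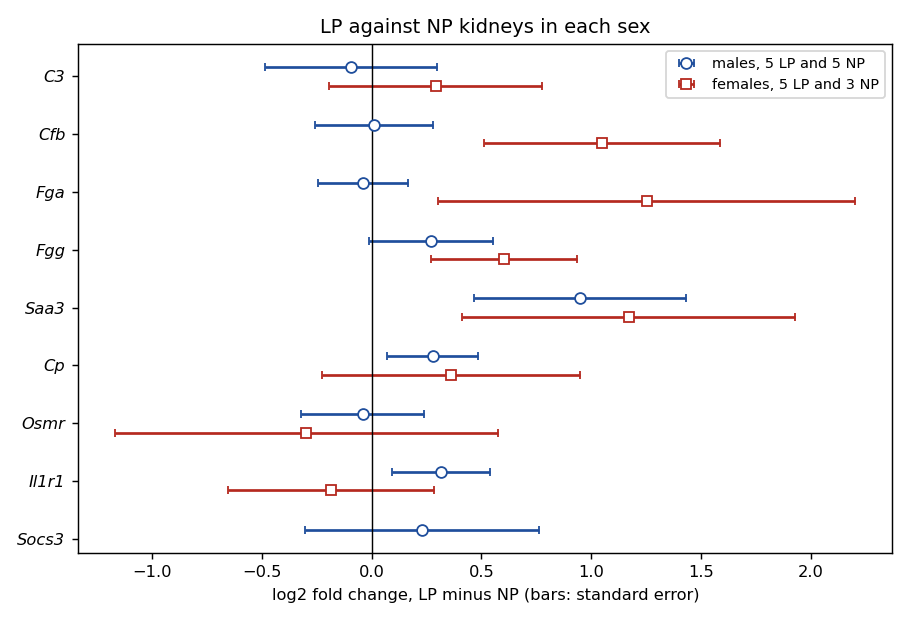
Log2 fold change of LP over NP kidneys for the 9 members measured above the minimum, in males (circles) and females (squares), with bars of 1 standard error and open symbols for values that were not called. All symbols are open, and the bars are wider in females than in males for the 8 genes with both.

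Females and males were compared over all 18 libraries, as the mean of the female groups minus that of the male groups. C3 was higher in females, with a log2 difference of 1.39 (SE 0.33, edgeR adjusted p = 0.00304), and Cfb was lower, with -0.88 (SE 0.29, edgeR adjusted p = 0.0239). These 2 of 8 members tested stand against 18.7% of 12665 genes called in either direction, 11.5% higher and 7.22% lower in females. Calls were thus common among all genes, and a share of this size is not a property of the members. The exact permutation test of 43758 arrangements, two-sided on log2(normalized count + 1), gave p = 0.00217 for C3 and 0.0171 for Cfb. C3 was called in all 18 fits that left out 1 library, and Cfb in 16, with an edgeR adjusted p of 0.0723 without NP female 1 and 0.0652 without NP female 3. Without the 6 libraries with Plin1 above 1 CPM, NP female 1 was the only NP female left. The log2 difference was then 1.68 for C3 and -0.95 for Cfb. Within LP mice C3 was called (1.58, SE 0.44) and Cfb was not (-0.35, SE 0.37), against 11.9% of genes. Within NP mice Cfb was called (-1.40, SE 0.46) and C3 was not (1.20, SE 0.49), against 17.6% of genes, and without the 3 females that stood apart C3 was called and Cfb was not (Cfb -0.98, edgeR adjusted p = 0.108, and C3 1.39, edgeR adjusted p = 0.0403). Since the interaction was not significant for either gene, these contrasts are not shown to differ between the diets.

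**Figure D4:**
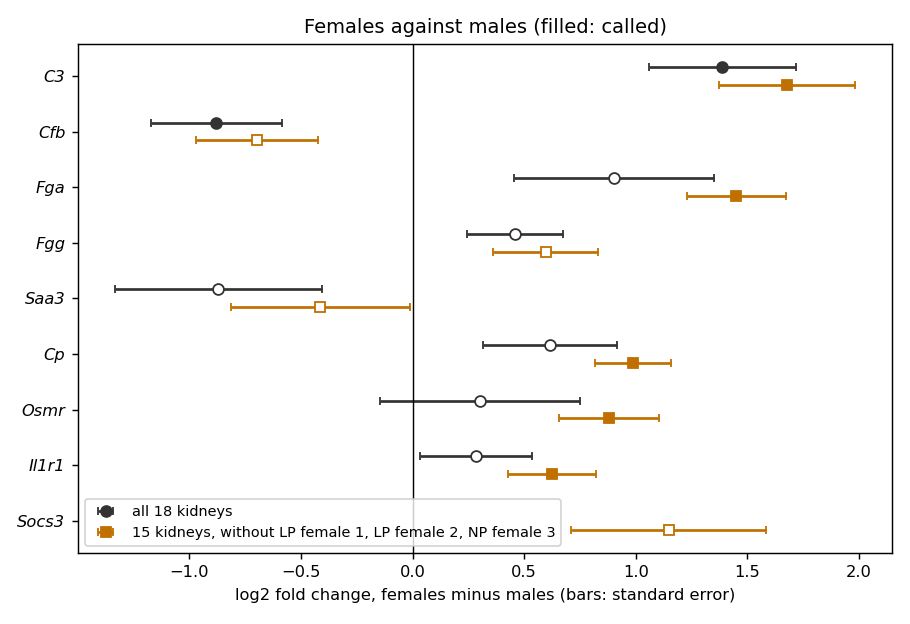
Log2 difference of females over males, with bars of 1 standard error, over all 18 kidneys (circles) and over 15 kidneys without the 3 females that stood apart (squares); filled symbols were called. C3 and Cfb are filled over 18 kidneys, and C3, Fga, Cp, Osmr, and Il1r1 are filled over 15.

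Calls of Fga, Cp, Osmr, and Il1r1 changed without the 3 females that stood apart. Over all 18 libraries Fga was at 0.90 (SE 0.45), Cp at 0.61 (SE 0.30), Fgg at 0.46 (SE 0.21), Osmr at 0.30 (SE 0.45), Il1r1 at 0.28 (SE 0.25), and Saa3 at -0.87 (SE 0.46), none of them called. Without these 3 libraries 5 of 9 members were called higher in females, C3 at 1.68 (SE 0.31), Fga at 1.45 (SE 0.22), Cp at 0.99 (SE 0.17), Osmr at 0.88 (SE 0.22), and Il1r1 at 0.62 (SE 0.20), against 11.6% of 12949 genes called higher. Cfb was at -0.70 (edgeR adjusted p = 0.0567), Socs3 at 1.15 (edgeR adjusted p = 0.0503), Fgg at 0.60 (SE 0.24, edgeR adjusted p = 0.059), and Saa3 at -0.41 (SE 0.40, edgeR adjusted p = 0.442). The 3 libraries were found by clustering on all genes, members included, so their own levels and the calls made without them are a description. Leaving out females that are low for a gene raises the female mean of that gene. Compared with the other 5 females, the mean of these 3 was lower by 8.38-fold for Fga, 8.10-fold for Osmr, 6.03-fold for Socs3, 2.81-fold for Cp, and 2.21-fold for Il1r1. All 3 lay below all 5 others for these genes. The share of all genes with such an order was not computed. For C3 and Saa3, 2 of the 3 lay below the other 5 females, and for Cfb and Fgg 1 did.

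Other measures moved with the same 3 females. Glucocorticoid receptor target genes summed to 1050 to 1125 CPM in them and 1897 to 2854 in the other females. Neutrophil markers summed to 1.04 to 6.39 CPM against 9.19 to 28.4, with Mpo and Elane at or near 0 in every library, and kidney epithelium markers to 10180 to 11760 against 14940 to 17780. Hepatocyte markers summed to 51.5 to 81.1 CPM in them, 137 to 208 in the other females, and 93.4 to 156 in males, mostly Apob, and Alb, at 1.19 to 14.2 CPM, was called higher in females than in males (1.33, SE 0.24), as was Trf. Macrophage markers overlapped, at 155 to 245 against 192 to 236. The other marker lists were tested between the sexes over 18 libraries, where 11.5% of 12665 genes were called higher in females. Called higher were 5 of 11 kidney epithelium, 2 of 3 adipocyte, 1 of 7 macrophage, 1 of 13 interferon-stimulated, and 2 of 10 glucocorticoid target genes. By edgeR 0 of 6 fibroblast and 0 of 1 red cell markers were called, with 0 at an unadjusted p under 0.05. The adipocyte genes called were Fabp4 and Pck1, and Pck1, at 2471 to 9411 CPM, is also a gluconeogenic enzyme of the proximal tubule. The part of any of these in the member values was not tested.

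Correlations between members were computed over the 10 males as log2(normalized count + 1), for the 36 pairs of 9 members. In males C3 and Cfb were correlated, with Pearson r = 0.86 (permutation p adjusted over 36 pairs 0.0376) and Spearman rho = 0.82 (adjusted permutation p 0.0509), and r = 0.81 without the 2 kidneys farthest from the C3 median. Over the 7 males with Plin1 of at most 1 CPM, r was 0.73 (exact permutation p = 0.0651) and rho 0.50 (exact p = 0.267), so r stayed positive but did not pass the test over these fewer kidneys. Socs3 and Osmr had r = 0.80 (adjusted permutation p 0.0376), rho = 0.82 (0.0509), and r = 0.81 without the farthest 2. Cp and Il1r1 had rho = 0.89 (adjusted permutation p 0.0385) and r = 0.70 (0.174).

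Over all male pairs r ranged from -0.55 to 0.86 with a median of 0.38, and 30 of 36 were above 0. The 8 females fell into sets of 5 and 3, both under 6 kidneys, so no pooled correlation is given for them and none within a set. As a description, Osmr and Il1r1 put the 8 females in the same order, from NP female 3 to NP female 2. It is 1 of 36 pairs, and the 3 females that stood apart were the lowest 3 for both genes.

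**Figure D5:**
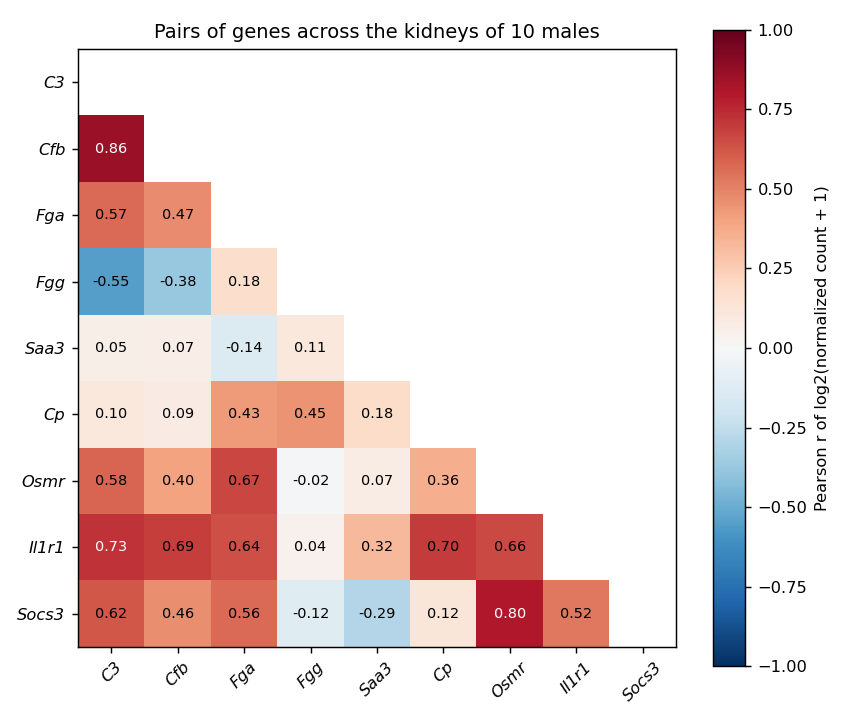
Pearson r of log2(normalized count + 1) for each pair of 9 members over the kidneys of 10 males, on a color scale from -1 to 1. Most squares are red, the strongest is C3 with Cfb at 0.86, and the lowest is -0.55.

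The genes whose pattern was most like that of each member were taken over the 18 libraries after group means were removed, among 12665 genes, as a description. The libraries share the first split, whose part in these values was not tested. Osmr was closest to Vcam1 (r = 0.99), an adhesion molecule of inflamed endothelium and tubules, then to Icam1 and Akap12 (both 0.98). Fga was closest to Angptl4 (0.97), Tacc2, and Nedd4l (both 0.96), and Il1r1 to Shisa3 (0.96), Lrrc8c (0.95), and Efcab14 (0.94). Cfb was closest to Atm (0.92) and Pik3c2g and Pptc7 (both 0.91), Cp to Slco1a6 (0.92), AI506816 (0.91), and Sparcl1 (0.89), and C3 to Foxn3 and Snx10 (both 0.90) and Oxgr1 (0.88). Saa3 was closest to Efhd2 (0.86), Ercc1 (0.84), and Slc26a4 (0.83), and Fgg, with the lowest counts, to Guca2a (0.80), Insl6 (0.77), and Matn4 (0.75).

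Lists of related genes were set beside the members. Of 18 other acute phase proteins, 6 were tested over 18 libraries and 0 were called between the sexes by edgeR, with 1 at an unadjusted p under 0.05, 0 called by DESeq2, 1 by limma-voom, and 1 with the replicate block. Saa1, Saa2, and Crp were below 10 counts in at least 1 library and were not tested. Saa1, a serum amyloid of liver, is described because of its values, and its near-identical copy Saa2 makes the split of reads between them uncertain. It had 1, 1, 2, 0, and 1 counts in LP males and 0, 2, 0, 0, and 0 in NP males, against 279, 69, 50, 182, and 44 in LP females and 37, 3, and 51 in NP females. Every female was above every male, but NP female 2, the lowest female, had 3 counts against 2 in the highest males. A count of 0 still allows 3, so that kidney is not told apart from the males. The share of all genes with such an order was not computed. With the filterByExpr minimum in place of 10 counts per library, which Saa1 passes through its counts in females, its log2 difference was 6.22. Without the 3 females it was 5.71. Both sizes depend on the prior count since males were at 0 to 2 counts, and no p is given. Saa2 had 0 to 24 counts in females and 0 to 2 in males, and Crp at most 10 in any library. Cd14, the lipopolysaccharide coreceptor, was at 0.57 (SE 0.23, edgeR adjusted p = 0.0575) and Lbp, which loads it, at 0.65 (SE 0.35, 0.157). Both were called higher without the 3 females, at 0.86 and 1.11, among 4 of 8 tested, against 11.6% of 12949 genes.

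Of 38 other complement genes, 18 were tested and 8 were called between the sexes, 7 higher and 1 lower in females, against 18.7% of all genes. The list's median log2 difference was 0.29 and that of all genes 0.05. C2, the classical pathway counterpart of Cfb and its neighbour on chr17, was 1.48 higher (SE 0.15, edgeR adjusted p = 6.9e-07), opposite in direction to Cfb. The complement inhibitor Clu was 0.74 higher (SE 0.12), and Cd55, which dissociates the convertases, was lower, at -1.44 (SE 0.24). C1qa, C1qb, and C1qc, the chains of C1q made by macrophages, were higher by 0.78, 0.66, and 0.91, and the regulators Cd46 and Cd59a by 0.96 and 0.62. Without the 3 females, 2 of 21 genes tested were called higher, C2 and Clu, and 1 lower, Cd55, against 2483 of all 12949 genes called. The other 5 were then not called. Cd59a, at 0.53 (edgeR adjusted p = 0.00799), then missed only the 1.5-fold limit, and C1qa, C1qb, C1qc, and Cd46 were at 0.41, 0.27, 0.43, and 0.65 with adjusted p above 0.05. C1qa was also the macrophage marker called.

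Of 23 genes of gp130 signalling, 17 were tested and 3 called, a share close to the 18.7% of all genes. Il6st, which encodes gp130, was lower in females (-0.75, SE 0.19, edgeR adjusted p = 0.00505), while Socs2 (1.16, SE 0.22), a feedback inhibitor of growth hormone signalling, and Cebpd (1.00, SE 0.30), an acute phase transcription factor, were higher. Without the 3 females Il6st was at -0.42 and no longer 1.5-fold, and 6 of 18 genes tested were called higher, against 11.6% of all genes. Of 23 genes of interleukin 1 and NF-kB signalling, 16 were tested and 1 was called, a smaller share than among all genes. It was the alarmin Il33 (0.83, SE 0.28, edgeR adjusted p = 0.0237). Without the 3 females 7 of 19 were called, 6 of them higher, against 2483 of all 12949 genes called and 11.6% called higher. Il33 was not among these 7 (0.59, edgeR adjusted p = 0.148). Of 15 tubular injury genes, 12 were tested and 4 called, against 18.7% of all genes. Spp1, or osteopontin (1.81, SE 0.15), and Havcr1, the injury marker KIM-1 (2.20, SE 0.80, edgeR adjusted p = 0.0365), were higher in females. Tnfrsf12a (-0.75, SE 0.22) and Gdf15 (-0.73, SE 0.26) were lower. With 1 library left out, the call was lost in 9 of 18 fits for Havcr1 and 7 for Gdf15, and in 0 for Spp1 and Tnfrsf12a. Without the 3 females 5 of 13 genes tested were called higher and 0 lower, against 11.6% of all genes called higher. Spp1 and Havcr1, at 1.91 and 2.85, were among these 5, and Tnfrsf12a and Gdf15 were not called. Spp1 made up much of the summed level of the list, at 214 to 601 CPM in males and 1237 to 1914 in females. The other 14 genes summed to 322 to 544 CPM in males, 254 to 300 in the 3 females apart, and 597 to 831 in the other 5. Their part in the values of C3 was not tested.

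These 5 lists held 0 genes called for the maternal diet by edgeR in either sex or for its interaction with sex, and 0 by DESeq2 or limma-voom. In males 1 of 8 acute phase proteins tested, 1 of 22 complement genes, 1 of 18 gp130 genes, 0 of 19 interleukin 1 genes, and 3 of 13 injury genes had an unadjusted p under 0.05. Of all 13181 genes tested in males, 506 did. Among the listed genes, Lcn2, which encodes the iron-scavenging injury protein NGAL, was at 1.27 (SE 0.39) and the protease inhibitor Timp1 at 0.84 (SE 0.26). Each had an edgeR adjusted p of 0.9996, and Lcn2 is in both the acute phase and the injury list. In females 2 of 13 injury genes had an unadjusted p under 0.05, among them Vim at -0.48 (SE 0.16, edgeR adjusted p = 0.886), and 0 of 6, 21, 17, and 17 genes of the other lists did. For the interaction 1 of 16 interleukin 1 genes had an unadjusted p under 0.05, and 0 of 6, 18, 17, and 12 genes of the acute phase, complement, gp130, and injury lists. Of all genes tested, 564 of 13510 in females and 509 of 12665 for the interaction had one.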

How the data were processed

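RNA of 18 kidneys was sequenced as 1 poly(A)-selected, non-directional library per mouse. The source of RNA was a part of the left kidney by the methods and an entire kidney by the design text. The authors deposited 1 table per mouse of unnormalized read counts for each gene. Before that they had trimmed adapters and run STAR with gene counting (version not given in the sources used here) on GRCm39 and the GENCODE vM36 annotation. The column counted without regard to strand was used. Reads not assigned to 1 gene (28.6% to 36.1% of a library) were left out. Library totals were 14050486 to 23562411 counts.

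Symbols and positions came from GENCODE vM39, which holds 78168 of the 78239 genes listed. Genes with at least 10 counts in each library compared were tested with edgeR 4.0.16 (R 4.3.3), quasi-likelihood F test, TMM normalization, and Benjamini-Hochberg adjustment over all genes tested. The SE is the log2 fold change divided by the square root of F. Calls needed an adjusted p under 0.05 and at least 1.5-fold, or the adjusted p alone for the interaction. Test scripts were checked on simulated data. Normalized counts are counts over DESeq2 size factors. RPKM used the summed exon length of each gene. Single genes were tested by exact permutation with a pseudocount of 1, and pairs of genes by permutation (100000 resamples, or all orders for the 7 males without adipocyte transcripts). Libraries were clustered by average linkage on 1 minus Pearson r of log2(CPM + 1). Permutations and tables were made in Python 3.11.15 (scipy 1.17.1, numpy 2.4.6, pandas 2.3.3).

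The members and gene lists were chosen with earlier results of these data known. Named genes are the 10 members, the genes called in each pathway list or else up to 3 with the smallest p, and the 3 genes most like each member. Alternatives in the test were the Wald test of DESeq2 1.42.0 and limma-voom (limma 3.58.1) with sample quality weights. Those in the filter and scaling were filterByExpr, a mean of 10 counts, no minimum, and size factors in place of TMM. Others were the replicate number as a block, all 18 libraries in 1 model, the adjusted p alone, each library left out, and the 3 females that stood apart left out. Leaving out the 6 libraries with Plin1 above 1 CPM, and filterByExpr without the 3 females, were added after the data had been seen.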

Additional observations from a re-analysis of the deposited data

Results flagged for a closer look

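Saa3 in LP male 2 was far from the rest of its group, at 423 normalized counts against 116 in the next highest LP male. The gap was 0.867 of the range of the 5 LP males, above Dixon's limit of 0.71. It was 1 of 27 groups of values examined this way, and chance alone flags about 1 in 20. In the same kidney neutrophil markers summed to 26.2 CPM, within the 7.75 to 30.1 of males, and macrophage markers to 227 CPM, the upper end of the 143 to 227 of males. Without this kidney the log2 difference of Saa3 between LP and NP males was 0.14.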

How the results depend on the processing

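For the maternal diet and its interaction with sex, 0 members were called under each alternative, including each library left out in turn. For females against males 2 members were called in the main test, and 5 with limma-voom, 5 without LP females 1 and 2 and NP female 3, and 5 with filterByExpr on the same libraries. Leaving out 1 library gave 1 to 4, with 1 without NP female 1 or NP female 3 and 4 without LP female 1. C3 was called under every alternative, and Cfb was lost in both fits without the 3 females and in the fits without NP female 1 or NP female 3. Of 1376 values of single genes recomputed, 1245 kept their direction and their call, 59 lost a call, 26 gained one, and 46 changed sign. The lowest adjusted p among those 46 was 0.567. The cause was not tested.

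Sign changes, as log2 values, were as follows. With the replicate block, C3 was 0.11 for diet in males, C3 was -0.24, Fga -0.35, and Cp -0.36 for diet in females, and Cp was -0.15 for the interaction. With limma-voom, Cfb was -0.19 and Socs3 -0.18 in males, Osmr 0.0488 and Il1r1 0.17 in females, and Fgg -0.0905 and Osmr 0.19 for the interaction. Without the libraries with adipocyte transcripts, C3 was 0.64, Fga 0.17, and Osmr 0.11 in males, Cp -0.28 in females, and C3 -0.35, Saa3 -1.07, and Cp -0.44 for the interaction. With 1 library left out, the diet difference in males spanned -0.30 to 0.20 for C3, -0.14 to 0.16 for Cfb, -0.17 to 0.13 for Fga, -0.32 to 0.55 for Socs3, and -0.18 to 0.16 for Osmr. In females it spanned -0.82 to 0.34 for Osmr and -0.58 to 0.51 for Il1r1. The interaction spanned -0.18 to 1.01 for Saa3, -0.79 to 0.36 for Osmr, -0.17 to 0.40 for Cp, and -0.90 to 0.17 for Il1r1. Between the sexes Osmr spanned -0.0092 to 0.58 and Il1r1 -0.0495 to 0.50.

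The replicate block left 0 members called for diet and 2 between the sexes. Deviations of LP and NP libraries with the same number correlated at a median of -0.133 for males, with 2 of 5 pairs over 0.1, and -0.252 for females, with 0 of 3, so the numbers were not taken as pairs. Counts of Fgg and Fgb limit what can be said of them at this depth.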
